A study of Mus musculus with 15 samples.

Results

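CIZ1, a zinc finger protein of the nuclear matrix that gathers at the inactive X chromosome, is absent from embryos of CIZ1 null mice. The transcripts of 3 CIZ1 null populations of primary mouse embryonic fibroblasts were compared with those of 3 wild-type (WT) populations. These are 6 of the 15 RNA-seq samples of the series, chosen by their labels. WT samples S01, S02 and S03 (CIZ1 +/+) were untreated. Null samples S04 and S05 (CIZ1 -/-) were untreated and carried no transgene, while null sample S06 (CIZ1 -/-) also had a GFP-CIZ1 transgene that doxycycline can switch on, and received no doxycycline. All 6 were female on the C57BL/6 background and were early-passage cultures, called primary here. The null allele is a gene trap behind the first exon of Ciz1, and each population came from an individual embryo. The labels name fewer null populations than there are null samples in the series and do not say which sample came from which. Some null samples of the series may therefore share an embryo, and the culture-adapted cells derive from the same populations. A second untreated transgenic null sample (S13), 2 transgenic null samples given doxycycline at 5 to 10 µg/ml (S14 and S15) and 6 culture-adapted samples were not in the comparison and are quoted only beside it. The title of S06 ends in S06, whereas its source name ends in S13, so the counts that the text rests on are also given without it: 127 units at an unadjusted p under 0.005 in place of 145, and 3 at an adjusted p under 0.05 in place of 1.

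CIZ1 supports the retention of Xist RNA at the inactive X chromosome and takes part in DNA replication. The Polycomb complexes PRC1 and PRC2, which modify histones H2A and H3 to keep developmental genes silent, act on the inactive X and on many autosomal genes. Fibroblasts make the collagens, elastic fibres and proteoglycans of connective tissue, and when attached to a stiff dish they also build actin stress fibres. They carry receptors for type I interferon, which act through factors that include STAT2 and IRF9 on genes with an interferon-stimulated response element in their promoter. The comparison asks which transcripts differ when CIZ1 is absent from cells that are not yet adapted to culture.

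Values are FPKM, the fragments per kilobase of transcript, scaled to the number mapped in the library, for transcription units assembled by the authors, and levels between genes are compared per length on that scale. A unit is a set of assembled transcripts at 1 locus; some genes have more than 1 unit and some units hold several genes. Of 65522 units, 19566 had a mean FPKM of at least 1 over the 6 samples and were tested. Differences are given as CIZ1 null minus WT on the log2(FPKM + 1) scale, which understates the change of genes with low FPKM. Pearson correlations of log2(FPKM + 1) over these units, which share depth and gene length, lay between 0.950 and 0.972 among WT samples, between 0.931 and 0.958 among null samples and between 0.918 and 0.969 across genotypes, so the ranges overlap. S06 had the lowest correlations with the rest. The smallest steps between low FPKM values put the depth of the other 5 samples at 1.2 to 1.62 times that of S01, and that of S13 at 0.481 times. In S04 a single pseudogene unit, Cbx3-ps5, was listed at 70181 FPKM and the 10 highest units held 14.7% of all FPKM, against 5.71% to 7.14% in the other 5. The fibroblast markers were high throughout, with 11 of 11 tested and a sum of 11425 to 11814 FPKM in WT and 10915 to 11948 FPKM in null samples. Their mean of log2(FPKM + 1) was 8.020 to 8.206 in WT and 8.324 to 8.509 in null samples, which do not overlap. At an unadjusted p under 0.05 (limma) 4 were higher and 1 lower in null cells, against 3.53% and 2.73% of all units.

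Ciz1 itself, on chromosome 2 at 32352327 to 32380970 (plus strand, GRCm38), was listed at 19, 25 and 21.4 FPKM in WT S01, S02 and S03 and at 0.279, 0.251 and 0.171 FPKM in null S04, S05 and S06. The means were 21.8 ± 2.98 FPKM (SD, n = 3) in WT and 0.234 ± 0.0563 FPKM (SD, n = 3) in null cells. The log2 change was -4.20 with a standard error (SE) of 0.149 and an adjusted p of 0.000394 (limma, Benjamini-Hochberg over all units tested). It was the only unit among the 19566 to pass an adjusted p under 0.05, which is 0.00511% of those tested. S13 had 0.514 FPKM of Ciz1, and S14 and S15 had 296 and 191 FPKM. Ciz1 and its neighbours within 100 kb made up 17 tested units, and none of the neighbours, among them Dnm1, Golga2, Swi5 and Ptges2, passed the test.

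Because no other unit passed correction, the rest of the comparison is described by ranks and by lists of genes. At an unadjusted p under 0.005 there were 145 units, of which 99 were higher in null cells (0.506% of those tested) and 46 lower (0.235%). Their adjusted p values, Ciz1 apart, ran from 0.26 to 0.649. In all 145 the 3 null values lay outside the range of the 3 WT values, which a selection on p all but requires and which is therefore no support. Over all units tested the null values lay above every WT value in 6.13% and below every WT value in 5.72%. At the looser threshold of an unadjusted p under 0.05, 3.53% of units were higher and 2.73% lower in null cells, and the median log2 change over all units tested was -0.00. The ranked higher units had a median difference of 1.10 on the log2 scale and the ranked lower units one of 0.95. S06, the transgenic null sample, was the highest null sample in 47 of the 99 higher units. It was the lowest null sample in 24 of the 46 lower units. Of the 99 higher units 82 held a protein-coding gene, and of the 46 lower units 33 did. The plot of change against p for all units shows Ciz1 standing alone above a broad base.

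**Figure D1:**
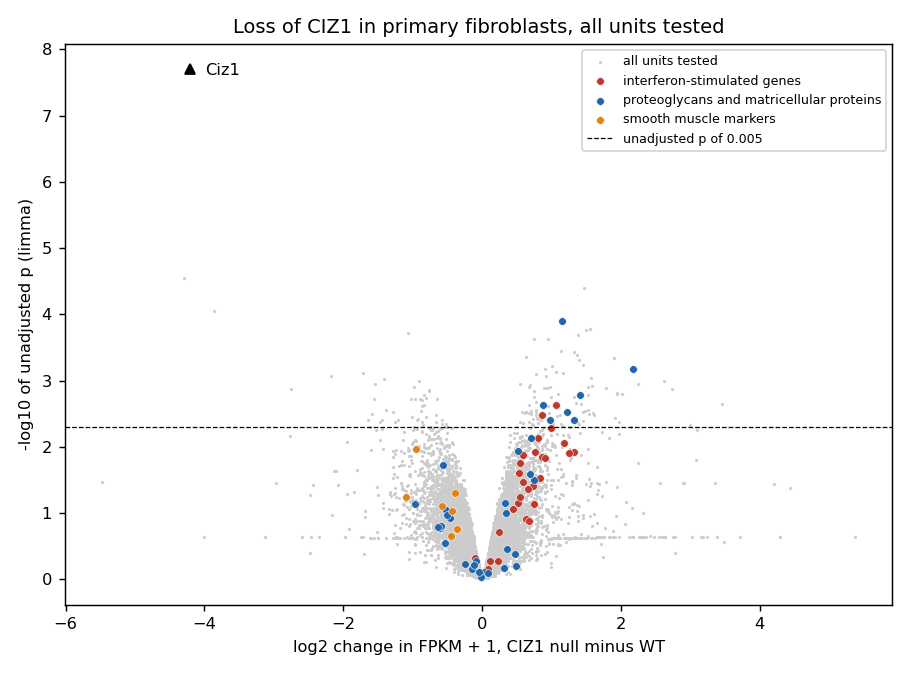
Log2 change in FPKM + 1 between CIZ1 null and WT primary fibroblasts (horizontal) against -log10 of the unadjusted limma p (vertical) for the 19566 units tested, with 3 gene lists in colour and a dashed line at a p of 0.005. Ciz1 lies apart from all other units, and the interferon-stimulated genes lie almost wholly to the right of 0.

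Among the gene lists, interferon-stimulated genes had the highest share of members on the higher side. Of the 41 in the list 28 were tested; 17 had an unadjusted p under 0.05 in the direction of null cells, none in the other direction, and 27 of the 28 had a positive change. At that threshold 3.53% of all units were higher and 2.73% lower. The median log2 change was 0.67 with a range of -0.10 to 1.33, against a median of -0.00 for all units. In 17 of the 28 the null values lay above every WT value, against 6.13% of all units tested. No member passed an adjusted p under 0.05. In bulk RNA such as this, fewer cells of a type and less RNA per cell cannot be told apart.

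Bst2, encoding the membrane protein tetherin that holds budding viruses at the cell surface, was listed at 65.5, 63.9 and 37.1 FPKM in WT and at 111, 124 and 105 FPKM in null samples. Its log2 change was 1.06 (SE 0.226, adjusted p 0.624). Isg15, a ubiquitin-like modifier, was at 12.5, 16.8 and 6.93 FPKM in WT and at 26.9, 49.4 and 20.4 FPKM in null samples, a log2 change of 1.33. In both genes the lowest null sample exceeded the highest WT sample. Stat2, a transcription factor that carries the interferon signal, was at 2.27, 4.29 and 5.73 FPKM in WT and at 8.03, 8.61 and 7.1 FPKM in null samples. Irf9, its partner, was at 8.29, 12.2 and 9.15 FPKM in WT and at 17.7, 13.4 and 14.6 FPKM in null samples. Both had null values above every WT value, although the Irf9 unit also holds Rnf31.

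The sensors of double-stranded RNA in the cytosol were also higher in all 3 null samples than in any WT sample. Ddx58, encoding RIG-I, was at 6.24, 8.36 and 6.46 FPKM in WT and at 10.5, 12.9 and 8.93 FPKM in null samples. Ifih1, encoding MDA5, was at 2.11, 1.9 and 1.31 FPKM in WT and at 3.1, 2.3 and 4.23 FPKM in null samples. Dhx58, encoding their relative LGP2, was at 0.347, 0.73 and 0.507 FPKM in WT and at 1.63, 3.15 and 1.55 FPKM in null samples, with an adjusted p of 0.649 by limma. Among effectors, Oasl2 was at 1.78, 1.4 and 1.06 FPKM in WT and at 2.65, 3.48 and 4.07 FPKM in null samples (log2 change 0.87, SE 0.198). Xaf1, a pro-apoptotic protein, had a log2 change of 1.18, Ifit3 one of 0.76, and Igtp, an immunity-related GTPase, one of 0.90. The proteasome subunit Psmb9 had a log2 change of 0.53, while its neighbour Psmb8 overlapped between genotypes. Members that did not pass the looser threshold included Ifi35, the one with a negative change (-0.10), and Ifi27 (0.11), which was listed at 78 to 113 FPKM across the 6 samples.

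**Figure D2:**
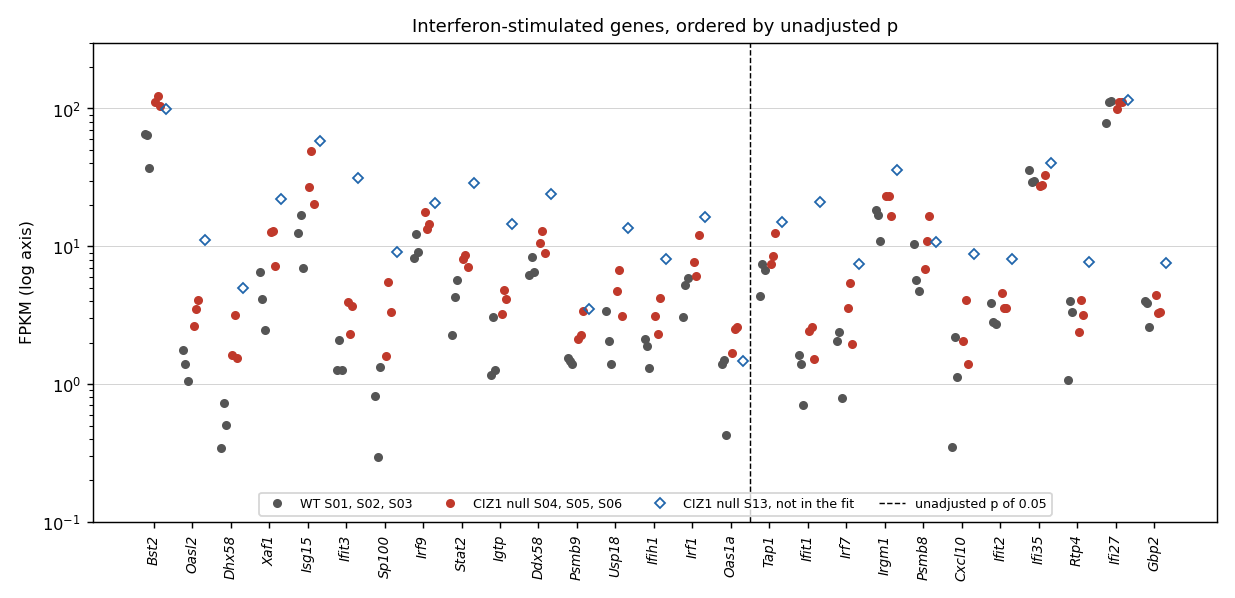
FPKM (log axis) of 27 of the 28 interferon-stimulated genes tested, in order of unadjusted p, with 1 point for each sample: WT in grey, CIZ1 null in red and the untreated CIZ1 null sample S13, which was not in the fit, as an open diamond. Left of the dashed line are 16 of the 17 genes with an unadjusted p under 0.05, each with null values above every WT value except Usp18, where they overlap.

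The promoters of these genes are shown because they are the sequences through which the interferon complex acts. The core of the interferon-stimulated response element, written as GAAA, any 2 bases and GAAA again, was searched on both strands (TTTC, 2 bases, TTTC on the other) in the 250 bases before and 50 after each transcription start listed by RefSeq in GRCm38.p6. Of the 17 genes with an unadjusted p under 0.05, 14 had a promoter in that table and 8 of the 14 held the motif in at least 1 promoter; of the other list members tested, 9 had a promoter and 4 held it. By comparison 3.44% of all promoters held it, and among the genes of all tested units with a promoter, 3.61%. The genes were listed because interferon stimulates them, so a share above that of all promoters is no support. Within the list the shares were 57.1% for the former and 44.4% for the other members. Among genes of the ranked units with a promoter, 4 of 40 on the higher side and 0 of 22 on the lower side held it. A match of letters does not show that a factor binds there. The promoters of Bst2 (chr8:71537423-71537722, minus strand), Isg15 (chr4:156200769-156201068, minus strand) and Ifit3 (chr19:34583279-34583578, plus strand) are given 5′ to 3′ with the matches in capitals, overlapping matches running together:
Bst2: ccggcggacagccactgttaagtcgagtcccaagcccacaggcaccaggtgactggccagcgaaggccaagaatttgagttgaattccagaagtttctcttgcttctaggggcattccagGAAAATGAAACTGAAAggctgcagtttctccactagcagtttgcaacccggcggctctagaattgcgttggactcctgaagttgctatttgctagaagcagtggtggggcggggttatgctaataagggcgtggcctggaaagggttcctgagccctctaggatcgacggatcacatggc
Isg15: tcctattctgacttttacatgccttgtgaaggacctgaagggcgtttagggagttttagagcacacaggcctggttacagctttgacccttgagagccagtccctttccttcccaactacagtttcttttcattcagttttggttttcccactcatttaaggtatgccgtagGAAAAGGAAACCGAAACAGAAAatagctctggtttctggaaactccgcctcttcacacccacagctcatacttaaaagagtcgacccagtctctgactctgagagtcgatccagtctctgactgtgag
Ifit3: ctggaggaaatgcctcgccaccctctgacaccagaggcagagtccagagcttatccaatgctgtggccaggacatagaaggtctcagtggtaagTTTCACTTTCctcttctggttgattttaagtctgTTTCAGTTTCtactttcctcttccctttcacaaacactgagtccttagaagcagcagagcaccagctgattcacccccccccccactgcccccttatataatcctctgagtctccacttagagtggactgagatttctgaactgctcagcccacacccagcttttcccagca

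Isg15 held 3 overlapping matches and Bst2 held 2, all on the strand of the gene, whereas Ifit3 held 2 separate matches on the other strand. Of the further members described, Oasl2, Xaf1, Irf9 and Psmb9 held none in this window.

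The level of the interferon list was not even among samples outside the comparison. The mean of log2(FPKM + 1) over its 28 units was 2.411, 2.600 and 2.274 in WT and 3.016, 3.220 and 3.041 in null samples S04, S05 and S06. S13 stood at 4.089. The 2 doxycycline-treated samples lay on either side of all of these, S14 at 2.228 and S15 at 4.934. Isg15 shows the same spread, with 58.2 FPKM in S13, 5.04 FPKM in S14 and 257 FPKM in S15. In the culture-adapted samples the list mean was 4.205, 3.118 and 4.356 in WT and 3.132, 2.661 and 4.791 in null samples, which overlap. There, none of the 37 members tested had an unadjusted p under 0.05, against 1.83% of units higher and 2.2% lower among all 19976 tested in those cells.

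Markers of macrophages, a cell type that responds to interferon and can persist in embryonic fibroblast cultures, varied widely between samples. Of 10 markers 9 were tested; all 9 had a positive change, with a median log2 change of 0.57, but none had an unadjusted p under 0.05 and none separated the genotypes. Their sum ranged from 13.9 to 34 FPKM in WT and from 7.16 to 64.9 FPKM in null samples. The complement gene C1qa was at 1.87, 5.39 and 1.87 FPKM in WT and at 14.8, 0.325 and 11.7 FPKM in null samples. S05 thus had the lowest macrophage level of the 6 and the highest level of the interferon list. Ptprc, encoding the leukocyte antigen CD45, was at most 0.787 FPKM in any of the 6. Without S05, 7 of the 9 markers had an unadjusted p under 0.05 in the direction of null cells, and 12 of 27 interferon-stimulated units did. Without WT S03, 11 of 30 interferon-stimulated units did, and without S06, 16 of 28 did, against 3.08% of all units in the fit without S06. In a fit of all 4 groups together, where the primary and adapted samples share 1 estimate of the spread, only 1 of 37 did, against 0.893% of all units. The shares over all units in the fits without S05 and without WT S03 are not given here. Those fits had 100 and 102 units at an unadjusted p under 0.005 (limma), against 145 in the main fit. Leaving out S05 removes the lowest macrophage level among null samples, so the 7 of 9 markers add no support. The part of macrophage RNA in the interferon result was not tested beyond these values. Endothelial markers were near 0, with a sum of at most 2.06 FPKM over 8 genes and Tie1 at 0 in all 6 samples.

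Genes of the fibroblast matrix were also found on the higher side. In the list of proteoglycans and matricellular proteins 34 units were tested; 11 were higher in null cells at an unadjusted p under 0.05 and 1, fibronectin (Fn1), was lower, with a median log2 change of 0.20. At that threshold 3.53% of all units were higher and 2.73% lower. In 11 the null values exceeded every WT value, against 6.13% of all units. Elastin and its scaffold led the list. Eln, the elastic fibre core, was at 2.49, 5.24 and 3.22 FPKM in WT and at 16.9, 12.6 and 33.6 FPKM in null samples, with a log2 change of 2.17 (SE 0.373, adjusted p 0.582). Fbn2, a fibrillin of embryonic microfibrils with the smallest p of any unit with a symbol on this side, was at 10.9, 8.41 and 9.62 FPKM in WT and at 20.4, 21.5 and 25.9 FPKM in null samples, with a log2 change of 1.15 (SE 0.15, adjusted p 0.423). Mfap4, which joins elastic fibres, was at 42.5, 30.2 and 30.5 FPKM in WT and at 106, 53.4 and 90.6 FPKM in null samples. The related Fbn1, the main fibrillin of adult tissue, was at 164 to 262 FPKM in WT and 178 to 225 FPKM in null samples, which overlap.

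Small leucine-rich proteoglycans, which bind collagen fibrils and set their width, were the other members of note. Decorin (Dcn) was at 31.1, 24.1 and 34 FPKM in WT and at 68.5, 51.1 and 47.7 FPKM in null samples (log2 change 0.88, SE 0.189). Lumican (Lum) was at 3.86, 4.54 and 4.2 FPKM in WT and at 10.6, 7.77 and 20.4 FPKM in null samples (log2 change 1.32, SE 0.312). Asporin (Aspn) was at 46.5, 28.2 and 25.7 FPKM in WT and at 71.5, 56.5 and 67.3 FPKM in null samples. All 3 had null values above every WT value, while biglycan (Bgn), at 1271 to 1779 FPKM across the 6 samples, and fibromodulin (Fmod), with a log2 change of -0.61, overlapped. The matricellular gene Nov was at 9.13, 4.67 and 7.17 FPKM in WT and at 15.4, 17.6 and 27.7 FPKM in null samples. Its relatives Ctgf and Cyr61 had log2 changes of -0.97 and -0.52 and overlapped between genotypes. Of 23 collagen units 3 were higher (Col3a1, Col14a1 and Col8a2) and 2 lower at the looser threshold, against 3.53% and 2.73% of all units. Col3a1, a fibrillar collagen of loose tissue, was at 322, 339 and 362 FPKM in WT and at 493, 468 and 745 FPKM in null samples. For the proteoglycan list the counts at that threshold were 10 higher and none lower of 33 without S06, 10 higher and 5 lower of 34 without WT S01 and also without S04, and 2 higher of 33 in the fit of all 4 groups. The shares over all units differ between these fits, and without S06 they were 3.08% higher and 2.08% lower. At an unadjusted p under 0.005 (limma) there were 194 units without WT S01 and 237 without S04, against 145 in the main fit.

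Growth factor genes were found on both sides. Of 35 units tested 8 were higher and 4 lower at an unadjusted p under 0.05, against 3.53% and 2.73% of all units, with a median log2 change of -0.13. On the higher side Igf1, an insulin-like growth factor, was at 1.88, 3.39 and 3.22 FPKM in WT and at 8.8, 8.03 and 9.73 FPKM in null samples, with a log2 change of 1.38 (SE 0.196, adjusted p 0.423). Igfbp3, which binds and carries it, was at 3.02, 7.74 and 9.28 FPKM in WT and at 20.9, 24.3 and 42 FPKM in null samples (log2 change 2.01, SE 0.403). The receptor Pdgfra was at 6.59, 9.64 and 14.2 FPKM in WT and at 19.4, 16.3 and 18.3 FPKM in null samples. On the lower side stood 3 ligands of the same family, Pdgfa, Pdgfc and Pdgfd, with log2 changes of -0.49, -0.62 and -0.78 and null values below every WT value in each.

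Other ranked genes on the higher side had diverse roles. Lgr5, a receptor for R-spondins in the Wnt pathway, was at 2.34, 1.27 and 1.43 FPKM in WT and at 7.85, 6.31 and 5.47 FPKM in null samples (adjusted p 0.423 by limma). Chtop, which takes part in mRNA export, was at 49.9, 46.2 and 42.2 FPKM in WT and at 78.8, 77.3 and 78.6 FPKM in null samples (log2 change 0.75, SE 0.109). Cltb, a clathrin light chain, was at 51.7, 56.6 and 54.7 FPKM in WT and at 81.9, 89.2 and 84.3 FPKM in null samples. The last 2 were abundant and their null samples lay close together. Tbxa2r, the thromboxane receptor, Kcne4, a potassium channel subunit with 2 units, and Egfl6, a secreted protein of the basement membrane, had log2 changes of 0.95, 1.32 and 1.39. Lrrc61 had a log2 change of 1.56, Ppp2r3d one of 1.90 and Agtr2, an angiotensin receptor, one of 1.92, the last resting on 0.715 to 1.07 FPKM in WT and 3.11 to 13.7 FPKM in null samples. Ptprv, a phosphatase transcript, was at 0.534, 0.114 and 0.699 FPKM in WT and at 3.54, 7.68 and 20.3 FPKM in null samples. Nell2 and Pxmp2 were listed at 0 in all 3 WT samples, with 1.88, 2.91 and 8.46 FPKM and 3.16, 3.14 and 28.6 FPKM in null samples.

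**Figure D3:**
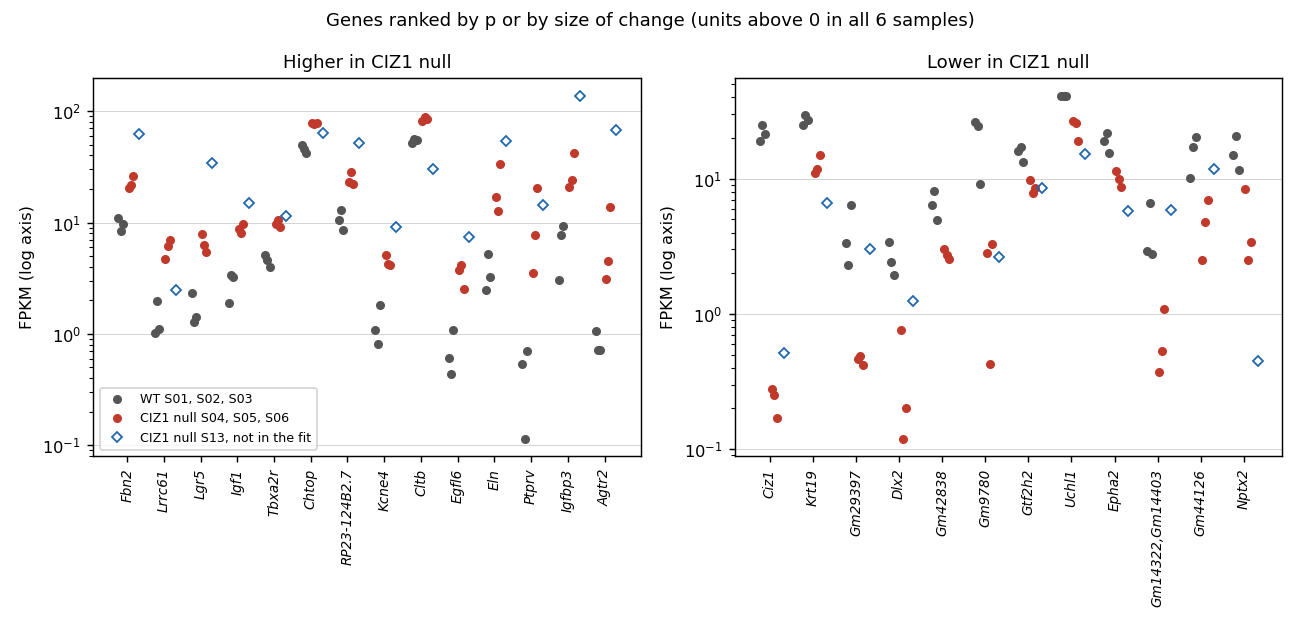
FPKM (log axis) of genes that ranked first by p or by size of change, higher (left) and lower (right) in CIZ1 null cells, with 1 point for each WT (grey) and CIZ1 null (red) sample and S13, not in the fit, as an open diamond; units listed at 0 in any of the 6 samples are left out and a gene with 2 units is drawn once. The choice of genes required that WT and null points do not overlap, so their separation is no support. In Fbn2, Lgr5, Igfbp3 and Agtr2 S13 lies above all null samples of the fit.

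On the lower side, the named genes after Ciz1 included a fibronectin receptor, a keratin and an ephrin receptor. Itga5, the fibronectin receptor subunit, was at 362, 312 and 307 FPKM in WT and at 201, 191 and 111 FPKM in null samples, with a log2 change of -1.01 (SE 0.233, adjusted p 0.639). Of 28 integrin and laminin units Itga5 was the 1 lower at the looser threshold, and Lama4, a laminin of vessels and muscle (log2 change 0.62), the 1 higher. These counts lie near the shares over all units, 3.53% higher and 2.73% lower. Krt19, a keratin, was at 24.9, 29.8 and 27.4 FPKM in WT and at 11, 11.8 and 14.9 FPKM in null samples (log2 change -1.07, SE 0.15, adjusted p 0.423). Krt19 was the epithelial marker with the highest level, and among the others Epcam was at most 0.113 FPKM, while Krt8 was listed at 8.06 FPKM in S05 and at 0 in the other 5 samples. Epha2, a receptor tyrosine kinase for ephrins, was at 19.2, 21.8 and 15.4 FPKM in WT and at 11.5, 9.99 and 8.71 FPKM in null samples. Uchl1, a deubiquitinase, was at 40.8, 41.3 and 41.1 FPKM in WT and at 26.6, 26.1 and 19 FPKM in null samples. Gtf2h2, a subunit of transcription factor TFIIH, had a log2 change of -0.76, Nptx2, a secreted pentraxin, one of -1.64 and Dlx2, a homeobox factor, one of -1.41 in its ranked unit.

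Of 7 smooth muscle markers, which myofibroblasts also express, all 7 had negative changes, with a median log2 change of -0.45, and 2 (Cnn1 and Smtn) had an unadjusted p under 0.05; for this and the other lists in the paragraph, the shares over all units were 3.53% higher and 2.73% lower. Cnn1, calponin, was at 290, 270 and 240 FPKM in WT and at 178, 167 and 85.6 FPKM in null samples (log2 change -0.95, SE 0.277, adjusted p 0.689). Acta2, smooth muscle actin, was at 6182, 4963 and 5484 FPKM in WT and at 5108, 4634 and 2890 FPKM in null samples, which overlap. S06 was the lowest null sample for both. Among 24 protease and inhibitor units 5 were higher and 4 lower, with Plau, Timp1 and Mmp16 among the lower ones. Plau, a plasminogen activator, was at 100, 87.6 and 104 FPKM in WT and at 79.7, 56 and 31.5 FPKM in null samples (log2 change -0.88). Csf1, a macrophage growth factor made by fibroblasts, was at 379, 362 and 407 FPKM in WT and at 272, 224 and 108 FPKM in null samples. Of 23 immediate-early genes 17 had negative changes and 2 (Fosl1 and Dusp1) passed the looser threshold, with a median log2 change of -0.33. Without WT S03, 9 passed it, and without S06 none did, against 2.08% of all units lower in the fit without S06. The share without WT S03 is not given here. That fit had 102 units at an unadjusted p under 0.005 (limma), against 145 in the main fit. Slc2a1, the glucose transporter, Hk2, hexokinase, and Ankrd37 were among 4 of 24 glycolysis and hypoxia units that were lower, and none was higher.

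The 2 units that followed Ciz1 on the lower side were processed pseudogenes. Gm14928 was listed at 41.3, 11.4 and 13.2 FPKM in WT and at 0 in all 3 null samples, and Gm37784 at 23.4, 18.8 and 5.33 FPKM in WT and at 0 in all 3 null samples. S13 listed Gm37784 at 110 FPKM and Gm14928 at 0. Reads of such copies can be assigned to their parent genes or to each other, so these values are uncertain.

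**Figure D4:**
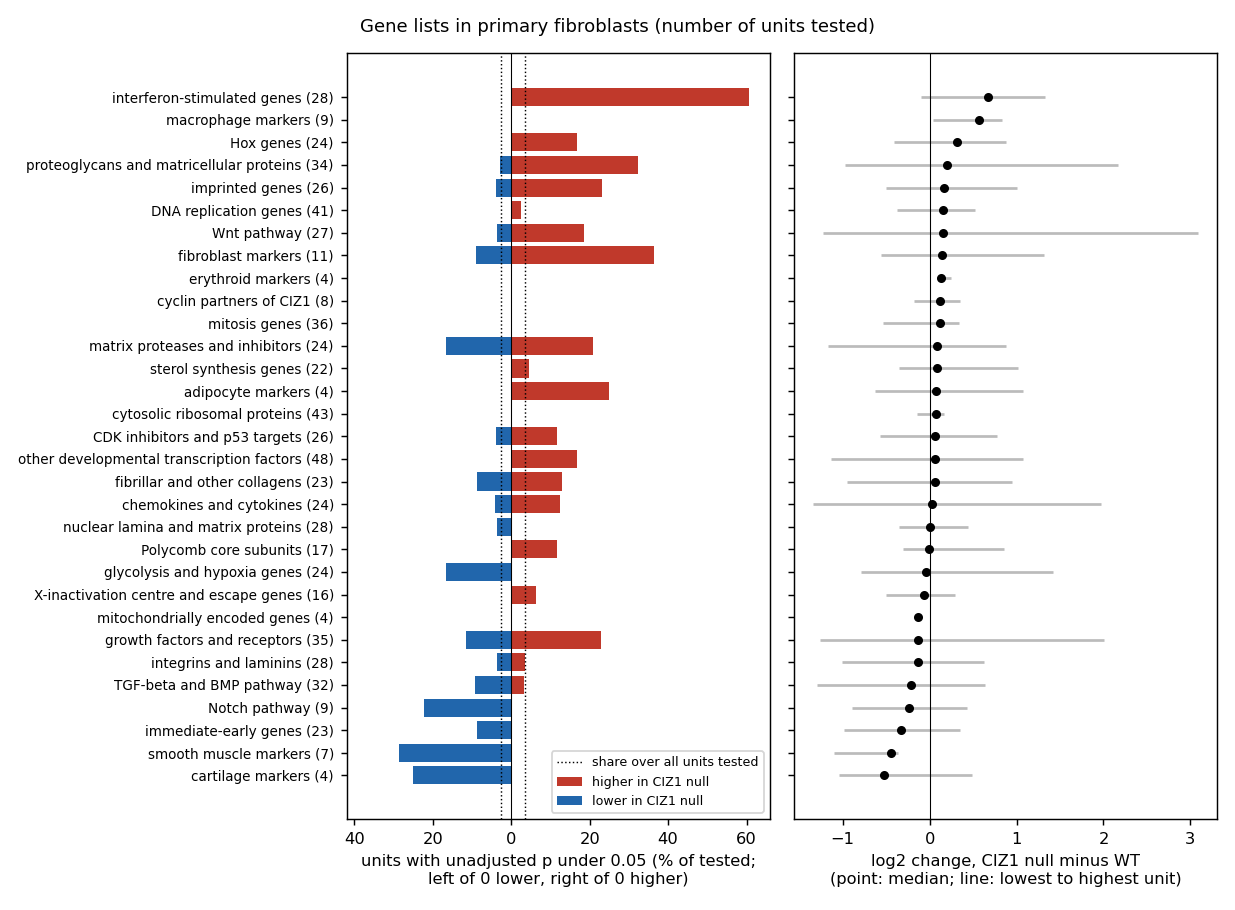
Gene lists with at least 4 units tested: at left the percentage of units with an unadjusted p under 0.05, higher (red, right of 0) or lower (blue, left of 0) in CIZ1 null cells, with dotted lines at the shares over all units; at right the median log2 change (point) and the range over units (line). Interferon-stimulated genes have both the highest share on the higher side and the highest median, and the smooth muscle and cartilage markers the lowest medians.

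Polycomb subunits were read one by one because these complexes act on the inactive X, where CIZ1 gathers. Of 17 core subunits tested 2 were higher at an unadjusted p under 0.05 and none lower, against 3.53% and 2.73% of all units, and the median log2 change was -0.01 with a range of -0.31 to 0.86. Ring1, a ubiquitin ligase of PRC1, was at 16.2, 9.48 and 9.01 FPKM in WT and at 23.6, 19 and 20.8 FPKM in null samples (log2 change 0.86, SE 0.226, adjusted p 0.68). The catalytic subunit of PRC2, Ezh2, was at 11.7, 14.6 and 14.2 FPKM in WT and at 13.7, 12.5 and 13.5 FPKM in null samples (log2 change -0.02, SE 0.13). Its partners Eed and Suz12 had changes of -0.01 (SE 0.176) and 0.03 (SE 0.139), the paralogue Ezh1 one of 0.16 and the histone binders Rbbp4 and Rbbp7 changes of -0.08 and -0.19. In PRC1, Rnf2 and Bmi1 had changes of -0.20 and -0.18, Pcgf2 one of 0.20, Cbx2, Cbx6 and Cbx8 changes of 0.26, 0.14 and 0.15, and Phc1, Phc2 and Phc3 changes of -0.07, -0.06 and -0.31. The null and WT values overlapped in 14 of the 17 subunits, Ring1 and Rbbp7 being among the exceptions, where over all units 6.13% lay above and 5.72% below.

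Developmental transcription factors, many of which Polycomb complexes silence, were read as a Hox list and a list of other factors, against 3.53% of all units higher and 2.73% lower. Of 24 Hox units 4 were higher and none lower at the looser threshold, with a median log2 change of 0.31; 3 of these 4 hold more than 1 Hox gene, since adjacent genes were assembled together. Hoxc6 was at 8.54, 5.64 and 10.2 FPKM in WT and at 17.1, 12.4 and 17.2 FPKM in null samples (log2 change 0.88, SE 0.229), and the unit of Hoxc5 and Hoxc10 had a log2 change of 0.61. Without WT S01 the counts were 8 higher and 4 lower, and without S06 they were 1 and 0. In the fit without S06, 3.08% of all units were higher and 2.08% lower. The shares without WT S01 are not given here. That fit had 194 units at an unadjusted p under 0.005 (limma), against 145 in the main fit. Of 48 other factors 8 were higher and none lower at that threshold, while 24 had positive and 24 negative changes and the median was 0.06. The absence of lower members did not hold in other fits: the counts were 8 higher and 4 lower without WT S01, 8 and 2 without WT S02, 6 and 3 without S04, and 9 and 4 with array weights. The shares over all units also differ between fits, and with array weights they were 5.66% higher and 4.58% lower. Dlx2, a member represented in the list by a unit whose values overlap, was lower in the ranked unit described with Krt19. Irx1, an Iroquois homeobox factor, was at 25.2, 19.4 and 31.4 FPKM in WT and at 47.7, 54.2 and 59.1 FPKM in null samples (log2 change 1.07, SE 0.188, adjusted p 0.582). Zic1 had a log2 change of 0.82 at a low level. Irx2, En1, Osr1, Alx4 and Meis1 were also among the 8.

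Of 26 imprinted genes, expressed from 1 parental copy, 6 were higher and 1 lower, against 3.53% and 2.73% of all units, with a median log2 change of 0.16. Cdkn1c, an inhibitor of the cell cycle, was at 26.6, 26.9 and 18.9 FPKM in WT and at 37, 41.1 and 46.7 FPKM in null samples (log2 change 0.77, SE 0.173). H19, a growth-restraining RNA, was at 196, 217 and 185 FPKM in WT and at 272, 304 and 497 FPKM in null samples. Peg3 had a log2 change of 0.87, and Peg10, with a change of -0.50, was the 1 lower. Dcn, described with the matrix genes, also belongs to this list.

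Xist was not among the transcripts that differed. The unit that holds Xist and Ftx was at 25.4, 28.4 and 31.4 FPKM in WT and at 30.4, 29.9 and 26.6 FPKM in null samples (log2 change 0.03, SE 0.127, adjusted p 0.968). Of 16 units of the X-inactivation centre, escape genes and silencing factors, 1 (Utp14a, log2 change 0.29) passed the looser threshold. Over the 703 X-linked units tested the median log2 change was -0.02, with 3.41% higher and 2.84% lower at that threshold, close to the shares over all units. Among 41 DNA replication units 1 was higher (Rfc3, log2 change 0.33), and among 36 mitosis units none passed; their medians were 0.15 and 0.12. None of 43 cytosolic ribosomal protein units passed, with a median of 0.07.

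The ranked units were then read in the samples that the comparison did not use. S13 has the null genotype; its values are set beside the others with no count, since a comparison would use the same WT samples. Eln was at 53.7 FPKM in S13, Igfbp3 at 138 FPKM and Dcn at 222 FPKM, each above all 3 null samples of the fit, and Itga5 at 57.3 FPKM and Cnn1 at 32.9 FPKM, each below them. Other genes on the higher side fell short of the null samples of the fit. Cltb was at 30.5 FPKM in S13, below every WT sample, and Pxmp2 was listed at 0, as in WT. Lrrc61 at 2.46 FPKM and Chtop at 63.5 FPKM lay below all 3 null samples but above every WT sample. The doxycycline-treated samples S14 and S15 are given beside S06 and S13, the untreated transgenic samples. The labels do not say which untreated sample shares a population with which treated one, so population and induction cannot be told apart. Fbn2 was at 25.9 FPKM in S06, at 62.1 FPKM in S13 and at 8.48 and 14.3 FPKM in S14 and S15. Igf1 was at 9.73 FPKM in S06, at 15.1 FPKM in S13 and at 7.26 and 6.65 FPKM in S14 and S15. Krt19 was at 14.9 FPKM in S06, at 6.64 FPKM in S13 and at 33.4 and 11.5 FPKM in S14 and S15. S14 and S15 also differed from each other, as Bst2 shows with 38.2 and 409 FPKM, and no test was made. The depth of S13, at 0.481 times that of S01, was also the lowest of these samples.

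**Figure D5:**
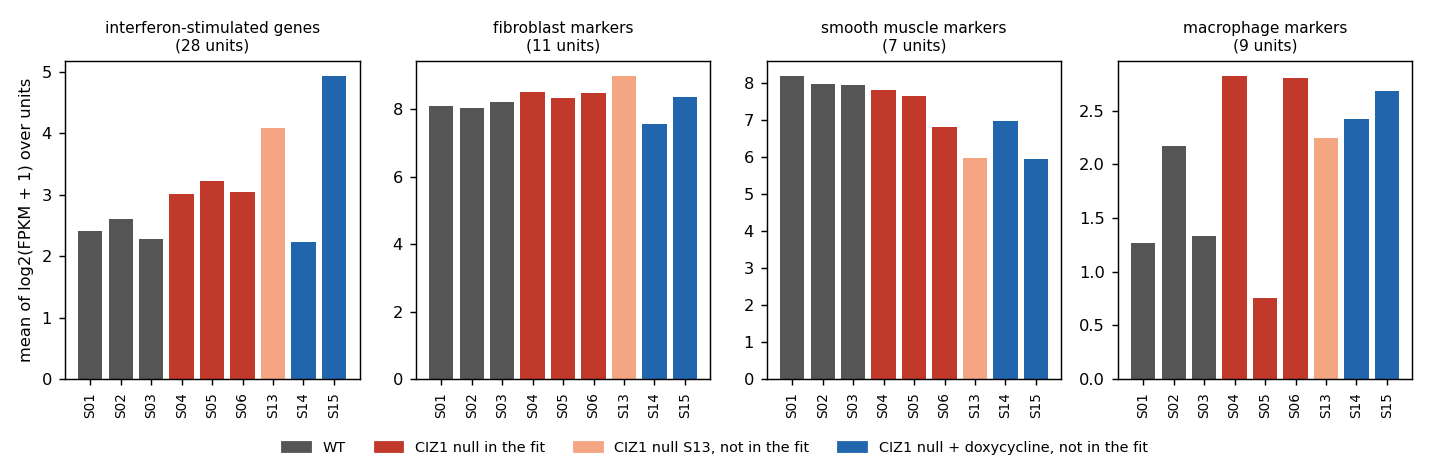
Mean of log2(FPKM + 1) over the tested units of 4 lists in each primary sample: WT in grey, CIZ1 null samples of the fit in red, S13 in light red and the doxycycline-treated samples in blue, each bar 1 sample. The interferon list runs from 2.228 in S14 to 4.934 in S15, and the macrophage markers are lowest in S05.

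In culture-adapted cells the same genotypes were compared with 3 samples each. These are other samples, but they derive from the same populations of embryos, so they are not independent of the primary ones. Of the 99 higher units 85 were also tested there and 67 had a positive change, with a median log2 change of 0.62. Of the 46 lower units 35 were tested and 23 had a negative change, with a median of -0.18. The median over all units tested in adapted cells was 0.03. The higher units carried 74 distinct symbols and the lower ones 38, so some genes were counted more than once. Lgr5 had a log2 change of 3.21 (SE 0.474) in adapted cells and Chtop one of 0.70 (SE 0.237), whereas Igf1 had one of 0.05 (SE 1.06) and Fbn2 one of -1.16 (SE 0.932). Whether loss of CIZ1 acted differently in the 2 states was tested as an interaction over all 12 samples, without a term for the shared populations, since the labels do not tie samples to them. In limma 0 of 20046 units passed, 928 had an unadjusted p under 0.05 and the lowest adjusted p was 0.278, but without adapted null sample S10 234 units passed and without S11 7 did. The mean of log2(FPKM + 1) over 36 mitosis units was 4.566 in S10, 1.563 in S11 and 2.442 in S12. In adapted WT samples it was 5.112, 5.099 and 4.730. Of these 36 units 27 were lower in adapted null cells at an unadjusted p under 0.05 (limma), against 2.2% of all units. The part of this difference in the adapted results was not tested. For Ciz1 the interaction was 0.19 (SE 0.287, adjusted p 0.999), and for Bst2, whose change was -1.03 (SE 1.06) in adapted cells, it was -2.08 (SE 1.19, adjusted p 0.996).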

How the data were processed

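Poly(A) RNA of the fibroblasts was sequenced with a kit that does not keep strand. The authors trimmed reads with Cutadapt 1.8.3, aligned them to GRCm38 with HISAT2 2.0.5, assembled units with Cufflinks, and deposited FPKM normalised across libraries by Cuffnorm (versions per the submitters' processing notes). Without strand, units of overlapping genes can share reads. A second deposited table, from Cuffdiff 2.2.1, holds the authors' fold changes, p-values and q-values and was not used.

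FPKM were taken as log2(FPKM + 1) for units with a mean of at least 1, and fitted with limma 3.58.1 in R 4.3.3 (lmFit, eBayes with a trend) without covariates, with Benjamini-Hochberg adjustment. The code was tested on simulated data. Tables used Python 3.11.15 and pandas 2.3.3. For lists, a gene was represented by its unit of highest mean FPKM and each unit counted once; 917 of 934 list genes were in the table. The labels do not tie samples to embryos, so p-values measure the spread between these samples only.

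The genes and lists were chosen with earlier results of these data known. Named genes were the 12 units on each side with the smallest p and the 8 with the largest change among those with p under 0.005, given a symbol and no overlap, up to 3 members of each list, the Polycomb subunits, Xist and the neighbours of Ciz1; further list members were named after their values were seen. Some genes that this rule names are not reported here. Gene coordinates are those of GENCODE M21, which is on GRCm38, and promoters are from RefSeq. Alternatives were another pseudocount, other filters, quantile normalisation, array weights, other sets of null samples, all 4 groups in 1 fit, and leaving out each sample.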

Additional observations from a re-analysis of the deposited data

Results flagged for a closer look

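Ciz1 was listed at 296 FPKM in S14 and 191 FPKM in S15, the doxycycline-treated transgenic null samples that the comparison does not use, against 19 to 25 FPKM in the 3 WT samples and 0.514 FPKM in the untreated transgenic sample S13. These values come from samples outside the comparison and were not tested.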

How the results depend on the processing

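No paired analysis was possible because the WT and CIZ1 null samples share no replicate numbers. Ciz1 passed the adjusted test under all 15 alternatives to the primary fit. The number of units at an adjusted p under 0.05 was 1 as reported, 3 with a pseudocount of 0.1, 3 with S04 and S05 alone, 2 with S13 in place of S06 and 2 with S13 added; leaving out each sample in turn gave 1 to 5, the most without WT S01. The number at an unadjusted p under 0.005 was 145 as reported, 226 with no filter, 318 with array weights and 41 with all 4 groups in 1 fit; leaving out each sample gave 85 (without WT S02) to 237 (without S04). The share of these on the higher side was 68.3%, but 58.2% at a mean FPKM of at least 5 and 56.1% with all 4 groups; leaving out each sample gave 54% to 69.4%. The interaction called 0 units, 2 with a pseudocount of 0.1, and 0 to 234 when each sample was left out, 234 without adapted null S10 and 7 without S11. The causes were not tested.

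Among 117 results on single genes, 1659 of 1715 alternative values kept their direction and side of the threshold, 5 passed the threshold in addition and 51 changed sign, in 16 units whose reported changes lay between -0.20 (Rnf2) and 0.22 (1110008P14Rik). Many of these genes were chosen by p, size of change or lack of overlap in the same samples, so the count is no support for them. Of 405 medians of 27 lists under the alternatives, 340 moved by less than the spread between samples and 65 by more. With all 4 groups in 1 fit, 1 of 37 interferon-stimulated units and 2 of 33 proteoglycan units were higher at an unadjusted p under 0.05. Quantile normalisation gave Eed 0.03 and Ptges2 -0.01. Array weights gave Eed 0.16, Cbx8 -0.10, Phc1 0.09, Phc2 0.07, Xist -0.00, Pomt1 -0.20, Slc25a25 0.17 and Swi5 -0.07. S04 and S05 alone, which is also the fit without S06, gave Eed 0.11, Cbx8 -0.04, Phc1 0.05, Phc2 0.05, Pomt1 -0.23, Slc25a25 0.00 and Swi5 -0.13. S13 in place of S06 gave Rnf2 0.05, Pomt1 -0.13, 1110008P14Rik -0.14, Ptges2 -0.02 and Slc25a25 -0.03, and S13 added gave Ptges2 -0.01 and Slc25a25 -0.19. Without S01 the values were Eed 0.14, Cbx8 -0.03, Phc2 0.05, Xist -0.04, Pomt1 -0.11, Slc25a25 0.18, Uck1 -0.06 and Golga2 0.07. Without S02 they were Ezh2 0.03 and Slc25a25 -0.16, and without S03 Ezh2 0.02, Swi5 -0.03 and Slc25a25 -0.03. Without S04 they were Suz12 -0.03, Xist -0.00, Ptges2 -0.03 and Slc25a25 -0.43, and without S05 Ezh2 0.01, Suz12 -0.03 and Golga2 0.02. Over the fits that leave out 1 sample, the far ends were -0.09 for Eed, 0.26 for Cbx8 and 0.23 for Uck1 without S03, 0.26 for Pomt1 without S05, and -0.26 (without S02) and 0.36 (without S06) for the 2 Slc25a25 units. Read depth in total is not held in FPKM, so low values have no counting interval here.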
